A study of Mus musculus with 12 samples.

Results

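DN2b cells are T cell precursors at the stage that the study takes to mark T lineage commitment. They were compared with the IgG control, cells that started from the same kind of progenitor and grew without Notch ligand. The members were 2 DN2b and 3 IgG libraries of the 12 DNase-seq libraries of the study. DNase-seq digests nuclei with DNase I, which cuts where chromatin is open, and a peak marks a place dense in cuts, a DNase I hypersensitive site (DHS). Each list was shortened to its 32952 highest-scoring peaks on the autosomes and X, and the 5 lists were merged wherever peaks overlapped by at least 1 bp, which gave 62357 regions (76895 when all 12 lists were merged). A region with a peak in both DN2b lists and in no IgG list is called a T-side site here. A region with a peak in all 3 IgG lists and in no DN2b list is called a control-side site. The question was which genes lie where open chromatin separates cells on the T cell path from cells grown off it.

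The methods name C57BL/6J mice as the source. LSK cells, the marrow fraction that lacks lineage markers and carries SCA-1 and KIT, were cultured with the cytokines SCF, FLT-3 ligand, IL-6 and IL-11 on flasks coated either with a high concentration of the Notch ligand Delta1, fused to an IgG tail, or with human IgG1. IL-7 was added to Delta1 cultures on the way to DN2b. DN2b cells were then sorted as KIT+ CD44lo CD25+, and no such sort is described for the IgG culture. Ligand, IL-7 and sorting therefore differ together between the groups and cannot be told apart. The labels name the stage of each library and give no age, sex or isolate. DN populations were taken from each LSK isolate by the methods, so libraries of different groups may share an isolate, and which do is not stated. Replicate numbers here only name libraries.

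Notch signalling is required for a blood progenitor to enter the T lineage. The receptor is cleaved when it meets a Delta ligand on a neighbouring surface, and its inner part enters the nucleus and joins the DNA-binding protein RBPJ. TCF1 (gene Tcf7), GATA3 and BCL11B act in turn to switch on T lineage genes, together with RUNX factors and the E proteins E2A and HEB, which bind E-boxes. Progenitors that grow in cytokines without a Notch signal tend towards myeloid fates, in which PU.1 and C/EBP factors are central.

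T-side sites numbered 10500 and control-side sites 7889, or 16.8% and 12.7% of the merged regions. The sides are not alike in stringency, since a T-side site needs 2 lists and a control-side site needs 3. Another 12202 regions, 19.6%, had a peak in all 5 lists. Just outside the rule stood 2555 regions with both DN2b lists and 1 IgG list, and 1007 with all 3 IgG lists and 1 DN2b list. The rule fixes these counts, so they are a description. A peak over a bulk of cells does not separate the share of cells open at a site from how open each cell is, and these cannot be told apart. The lists as deposited held 61515 and 111657 peaks in DN2b, and 37550, 32977 and 37530 in IgG. Read totals are unknown, and list length is the sole trace of depth. At equal length the last peaks taken had a score of 31 and 65 in DN2b and 18, 2 and 16 in IgG, so the IgG lists reached further down their scores. Lower in the deposited lists, 13.5% of control-side sites had a peak in DN2b replicate 1 and 28.7% in replicate 2, while 70.4% had none in either. Of the T-side sites, 96.3% had no peak in any deposited IgG list, but those lists end soon after the equal length.

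Sequences of 7 sites are shown to make the sides concrete, before the genes are described. They are the highest-ranking site of each side and sites chosen after their values were seen, beside genes described later. Each is 200 bp of the plus strand of GRCm38 (the assembly behind mm10), read from the RefSeq reference and centred on the merged region. Capitals mark letters found by search on either strand: the E-box CACCTG, the RUNX letters TGTGGT, the C/EBP letters TTGCNNAA and the AP-1 letters TGANTCA, with N for any base. Runs in capitals join where matches overlap. The first 4 are T-side and the last 3 control-side.
Between Trbc2 and Trbv31, chr6:41554532-41554731: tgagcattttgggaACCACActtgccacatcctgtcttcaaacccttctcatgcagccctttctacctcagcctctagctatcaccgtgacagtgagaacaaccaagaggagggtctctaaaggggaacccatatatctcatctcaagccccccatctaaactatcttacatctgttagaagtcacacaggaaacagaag
Upstream of Il2ra, chr2:11623202-11623401: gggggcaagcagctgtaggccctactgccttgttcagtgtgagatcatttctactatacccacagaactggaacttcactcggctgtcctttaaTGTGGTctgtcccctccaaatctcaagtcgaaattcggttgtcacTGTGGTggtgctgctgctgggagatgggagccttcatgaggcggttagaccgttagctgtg
Upstream of Tcf7, chr11:52314292-52314491: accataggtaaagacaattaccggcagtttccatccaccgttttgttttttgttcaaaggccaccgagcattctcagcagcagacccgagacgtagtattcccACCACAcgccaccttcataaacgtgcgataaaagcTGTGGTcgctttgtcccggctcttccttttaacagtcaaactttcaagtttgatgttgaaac
Upstream of Gimap6, chr6:48732982-48733181: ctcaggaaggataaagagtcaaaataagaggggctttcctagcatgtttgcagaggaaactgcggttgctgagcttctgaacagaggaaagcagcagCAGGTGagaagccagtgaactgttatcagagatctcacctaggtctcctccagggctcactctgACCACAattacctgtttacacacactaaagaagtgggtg
Near Ccr1, chr9:123936732-123936931: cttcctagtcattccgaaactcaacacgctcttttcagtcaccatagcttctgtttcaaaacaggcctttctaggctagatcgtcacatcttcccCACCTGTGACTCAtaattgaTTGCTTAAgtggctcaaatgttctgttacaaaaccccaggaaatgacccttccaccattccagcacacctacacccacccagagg
Promoter of Sirpa, chr2:129592012-129592211: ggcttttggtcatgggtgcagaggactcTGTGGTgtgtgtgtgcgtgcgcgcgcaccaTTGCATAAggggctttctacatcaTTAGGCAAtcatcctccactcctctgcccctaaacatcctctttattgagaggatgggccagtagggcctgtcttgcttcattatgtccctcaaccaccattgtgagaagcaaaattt
Upstream of Ccl2, chr11:82015232-82015431: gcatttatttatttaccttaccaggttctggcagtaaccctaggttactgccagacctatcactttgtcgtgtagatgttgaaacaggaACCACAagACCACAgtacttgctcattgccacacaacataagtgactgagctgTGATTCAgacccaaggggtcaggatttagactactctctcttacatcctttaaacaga

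The site between Trbc2 and Trbv31, at the end of the T cell receptor beta locus, stood at percentile 99.7 of the scores in both DN2b lists (100 is the highest-scoring end of a list). It had a peak in all 7 LSK, DN1 and DN2a lists, so at equal list length IgG was the one population without it. The Il2ra site lies 19.5 kb upstream of the gene for CD25, the marker by which DN2 cells are sorted, at percentiles 97.4 and 97.5. The Tcf7 site lies 31.4 kb upstream of its gene, at 96.0 and 97.5. Each of these holds a pair of RUNX matches and had a peak in both DN1 and both DN2a lists and in no LSK list. The Gimap6 site, 24.9 kb upstream of its gene and inside an intron of Gm28053, carries 1 E-box and 1 RUNX match. On the control side, the site near Ccr1, a chemokine receptor of myeloid cells, had percentiles of 99.9, 99.3 and 99.95 in the IgG lists and matches to the C/EBP, AP-1 and E-box letters. The Sirpa promoter site holds 2 C/EBP matches and 1 RUNX match and had no peak in any of the 7 other lists. The Ccl2 site holds 2 RUNX matches and 1 AP-1 match, without a C/EBP match. Control-side sites read beside Itgam and Lyn, which are not shown, held neither a C/EBP nor an AP-1 match. A match is a description of the letters and not evidence that the factor binds.

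Markers bore out the DN2b label in part. Of the 11 T precursor markers, 9 had a promoter peak (midpoint within 1 kb of the gene start) in DN2b replicate 1 and 8 in replicate 2, against 0, 0 and 1 in the IgG libraries, and all 11 had at least 1 T-side site within 50 kb of the gene start, against 41.6% of all genes. T-side sites are what the rule selected, so that last count is a description. Gata3 and Ptcra were without a promoter peak by this measure in every library. The gene start is the outer end of the gene record, here and in later counts for single genes. A peak at another start site of a gene is therefore not counted as a promoter peak. Over all 21755 protein-coding genes, 9703 and 9672 had a promoter peak in DN2b and 9359, 8903 and 9203 in IgG, somewhat under the midpoint of the gene set in each library. The IgG label names a culture and not a cell type, and its libraries had promoter peaks at 11, 9 and 11 of 16 neutrophil markers against 1 and 1 in DN2b. For 21 macrophage and dendritic cell markers the IgG libraries had 10, 9 and 11 against 5 and 5. In IgG these shares were only slightly above those over all genes, and in DN2b they were well below. Mast cell markers had 4 and 4 of 15 in DN2b and 3, 3 and 3 in IgG, and erythroid and megakaryocyte markers overlapped, with 4 and 3 of 15 in DN2b and 4, 4 and 3 in IgG. Both of these lists lay below the share over all genes in every library.

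Replicates resembled each other. The Jaccard index (shared bases over the bases of either list) was 0.598 for the DN2b pair, 0.451 to 0.488 for the 3 IgG pairs and 0.228 to 0.260 for the 6 mixed pairs. The mean within groups exceeded that between groups by 0.260 (exact permutation test, p = 0.1, one-sided and the smallest that 10 divisions of 5 libraries can give). Peaks at promoters, with a midpoint within 1 kb of the start of a protein-coding gene, made up 35.9% of both DN2b lists and 32.5%, 31.0% and 31.8% of the IgG lists. DN2b was higher by 4.15 percentage points without overlap (two-sided exact permutation test, p = 0.1, again the smallest possible). With all peaks as deposited the sign turned, to -6.95 points. The DN2b lists are the longer ones there, and the part of list length in this was not tested.

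Most sites of either side lay away from promoters. Promoters held 13.2% of T-side sites (95% Wilson interval 12.5% to 13.8%), 7.49% of control-side sites (6.93% to 8.09%) and 24.2% of all merged regions. These and later intervals cover counting error only. Introns held 44.3% of T-side and 44.1% of control-side sites, and 37.0% and 44.1% lay between genes. The median distance to the nearest gene start was 19.9 kb for T-side sites and 23.4 kb for control-side sites, against 12.7 kb for all regions. The share of sites at promoters was higher on the T side in all 17 alternatives examined. The number of promoters was not, since when a peak in at least 1 library was enough the control side had 902, more than the T side.

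To place the sites on the developmental path, they were looked up in the 7 LSK, DN1 and DN2a libraries, which the rule did not use. T-side sites had a peak in 29.0%, 30.5% and 28.9% of cases in the LSK libraries, in 49.4% and 50.2% in DN1, and in 72.4% and 74.8% in DN2a. The shares were higher in each later stage, with no overlap between stages. Control-side sites had a peak in 26.4%, 26.4% and 25.7% of cases in LSK, 21.4% and 20.8% in DN1, and 10.2% and 9.77% in DN2a, so the order was the reverse. Over all merged regions the share ran between 42.5% and 48.1% in the 7 libraries. Delta1-grown libraries (DN1 and DN2a) held T-side sites more often than LSK by 32.2 percentage points (two-sided exact permutation test over 35 divisions, p = 0.0286, the smallest possible, adjusted p = 0.0571 over the 2 sides), higher in 4 of 4 libraries. For control-side sites they were lower by a difference of -10.7 points in 4 of 4 libraries (p = 0.0857 in the exact permutation test, adjusted p = 0.0857). Neither passed 0.05 after adjustment. The LSK libraries came from freshly isolated marrow cells, by the study. Delta1, time in culture and the markers used for sorting therefore differ together here, as does IL-7 for DN2a, and cannot be told apart.

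**Figure D1:**
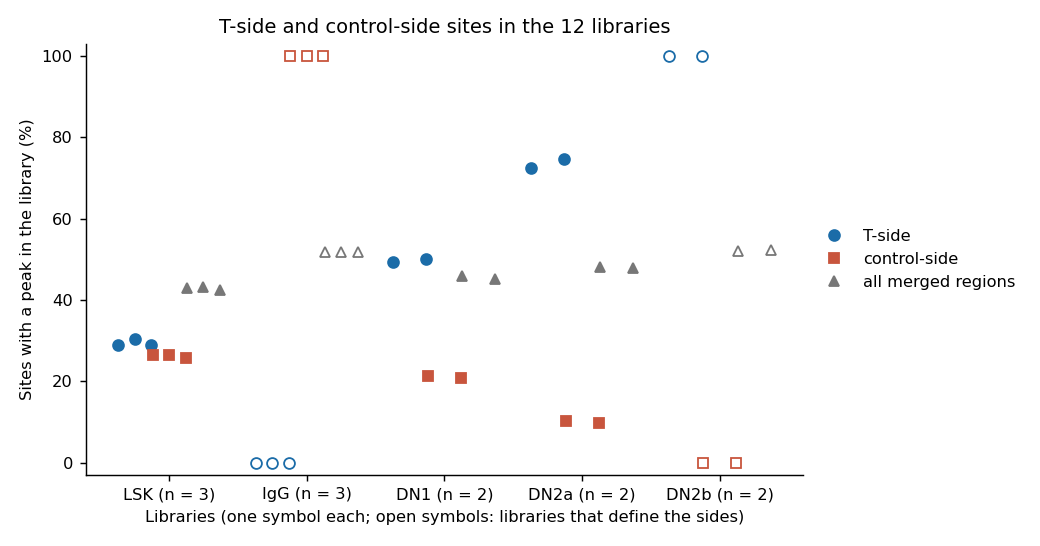
Share of T-side sites (circles), control-side sites (squares) and all merged regions (triangles) with a peak in each of the 12 libraries, as a percentage on a linear axis, by group; open symbols are the 5 libraries that define the sides. T-side shares stand at 28.9% to 30.5% in LSK and at 72.4% and 74.8% in DN2a, while control-side shares stand at 25.7% to 26.4% in LSK and at 10.2% and 9.77% in DN2a.

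The sides also differed in where their sites had been seen. Only 12.3% of T-side sites (11.7% to 12.9%) had a peak in none of the 7 other lists, against 60.9% of control-side sites and 33.8% of all regions. A further 20.3% of T-side sites had a peak in all 3 LSK lists, below the 35.2% of all regions. Sites in no LSK and both DN1 lists made up 15.3% of the T side against 4.90% of all regions, and those in no LSK or DN1 list and both DN2a lists 14.5% against 3.19%. Thus T-side sites included DHSs that progenitors already had and IgG cells lacked as well as DHSs seen at DN1 and at DN2a. On the control side 18.9% had a peak in all 3 LSK lists, again below all regions. Of control-side sites, 2.59% were in no LSK and both DN1 lists, and 0.0761% in no LSK or DN1 list and both DN2a lists. Whatever the LSK lists held, 17.3% had a peak in both DN1 lists, against 40.5% of all regions. For both DN2a lists the shares were 6.29% and 41.7%.

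Genes were then ranked by the sites within 50 kb of their start. Of 21755 protein-coding genes, 41.6% had at least 1 T-side site in that window and 35.4% at least 1 control-side site. More T-side than control-side sites were found around 29.6% of genes, and more control-side sites around 19.8%. Windows with 5 or more T-side sites belonged to 617 genes (2.84%), and those with 5 or more control-side sites to 166 genes (0.763%). Crowded windows belonged to gene-dense regions as well as to single genes, so other protein-coding genes that share most of a gene's sites are named with it. The 12 genes named for each side were those with the most sites, leaving out genes whose sites were mostly counted already.

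Cd3e (ENSMUSG00000032093.7, minus strand of chromosome 9, 44998740 to 45009627), which encodes a signalling chain of the T cell receptor, had 12 T-side sites and 1 control-side site. Regions with a peak in its window numbered 15 and 18 in DN2b and 5, 5 and 5 in IgG. None of the 12 had a peak in all 3 LSK lists, and 7 had one in both DN2a lists. Cd3d, Cd3g, Ube4a, Mpzl2 and Mpzl3 share most of these sites, so the CD3 genes are 1 locus and not 3 results. The promoter peak of Cd3e stood at percentiles 86.4 and 95.9 in DN2b and was missing in IgG.

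Tcf7 (ENSMUSG00000000782.15, minus strand of chromosome 11, 52252371 to 52283014), the gene of TCF1, had 9 T-side sites and no control-side site. Its window held 13 and 12 regions with a peak in DN2b and 1, 1 and 0 in IgG, the emptiest IgG window among the T-side genes named. Of the 9 sites, 7 lay upstream of the start. The promoter peak itself ranked low in DN2b, at percentiles 14.7 and 8.5, against 96.0 and 97.5 for the upstream site printed above. Gimap6 (ENSMUSG00000047867.11, minus strand of chromosome 6, 48701582 to 48708225), one of a cluster of GTPases expressed in lymphocytes, had 11 T-side sites and no control-side site. There the regions with a peak were 14 and 16 in DN2b and 3, 4 and 4 in IgG. Gimap1, Gimap4, Gimap5, Gimap7, Gimap9 and Gm28053 share most of these sites.

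Lif (ENSMUSG00000034394.14, plus strand of chromosome 11, 4257557 to 4272514) had the most T-side sites, 13, with 2 control-side sites. It encodes a cytokine of the IL-6 family, next to Osm, which encodes another, and Osm and Castor1 share most of the sites. Regions with a peak numbered 21 and 20 in DN2b and 13, 5 and 12 in IgG, and without IgG replicate 2 the surplus of T-side sites fell from 11 to 7. It was 5 when a peak in at least 1 library was enough. With half-length lists, which hold only the higher-scoring peaks, the order of the 12 T-side genes changed. The surplus there was 7 for Gimap6 and Sema4d, 6 for Cd3e and Tcf7, 5 for Gm42791, 4 for Slc29a1 and Adgrg1, 3 for Mcoln2, 2 for Lif and Smad3, and 1 for Anp32e and C5ar2. Slc29a1, a nucleoside transporter, had 12 T-side and 2 control-side sites, most of them shared with Hsp90ab1 and Mymx. Sema4d, a semaphorin found on T cells, had 10 and 1. Smad3, which carries signals of the TGF-beta receptor, had 10 and 2. The promoters of Sema4d and Smad3 had a peak in all 5 lists, so the difference there lay in the sites around them.

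The other T-side genes were Gm42791, a predicted gene, with 10 T-side sites to 1 control-side site, Anp32e, a chaperone of histone H2A.Z, with 10 to 1, and Mcoln2, a lysosomal cation channel, with 9 to 2. Adgrg1, an adhesion receptor, had 9 to 1, and C5ar2, a receptor for complement C5a, 9 to 3. Gm42791 and C5ar2 had a control-side promoter, opposite to the sites around them. For C5ar2 the order also turned within 25 kb, where control-side sites were ahead (difference -2). C5ar2 is thus a member by its wider surroundings only. Most sites are shared with Car14 for Anp32e, with Wdr63 and Mcoln3 for Mcoln2, with Adgrg3 for Adgrg1 and with Meis3 and Dhx34 for C5ar2.

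Sirpa (ENSMUSG00000037902.18, plus strand of chromosome 2, 129592835 to 129632228) led the control side with 9 control-side sites and no T-side site. It encodes the receptor by which phagocytes read CD47. Regions with a peak in its window numbered 0 and 0 in DN2b and 11, 11 and 13 in IgG. Of the 9 sites, 7 had a peak in none of the 7 other lists. Its promoter peak stood at percentiles 92.6, 95.4 and 94.0 in IgG. Sirpa was the one control-side gene whose lead stayed within 1.5 times under every alternative.

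Ccl2 (ENSMUSG00000035385.5, plus strand of chromosome 11, 82035571 to 82037453), which encodes a chemokine that attracts monocytes, had 7 control-side sites and no T-side site, all 7 upstream of its start. Again no DN2b list had a peak in the window, and the IgG lists had 10, 8 and 10 regions. Itgam (ENSMUSG00000030786.18, plus strand of chromosome 7, 128062640 to 128118491), the gene of CD11b on myeloid cells, had 7 control-side sites and 1 T-side site, with 2 and 1 regions in DN2b and 8, 8 and 8 in IgG. Lyn (ENSMUSG00000042228.14, plus strand of chromosome 4, 3678115 to 3813122), a Src family kinase of myeloid and B cells, had 7 and 0, with 2 and 2 regions in DN2b and 10, 12 and 12 in IgG. Sirpa, Ccl2, Itgam and Lyn each had a control-side promoter. The Ccl2 sites are mostly shared with Asic2, Gm17268 and the chemokine gene Ccl7, and the Itgam sites with Gm49368, so these windows do not belong to 1 gene.

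Hcar2, the niacin receptor, had 7 control-side sites and no T-side site, and Ceacam18, next to the myeloid lectin gene Siglece, had 8 and 0. Notch2, a Notch receptor, had 7 control-side sites and 1 T-side site, and all 7 had a peak in none of the 7 other lists. Without DN2b replicate 2 its difference (T-side minus control-side sites) went from -6 to -3. Vsir, which encodes an inhibitory receptor of immune cells, had 8 and 3, Syt8 8 and 2, Lrp1, a scavenger receptor, 7 and 2, Tpd52 7 and 4, and Cnot11, a subunit of the CCR4-NOT complex, 7 and 3. With all peaks as deposited Cnot11 turned to a T-side surplus of 2, and Notch2, Syt8 and Vsir came to 0. Of the 12 control-side genes, 8 still had a control-side surplus there. Within 25 kb the difference for Cnot11 was 0. Most sites are shared with Hcar1, Denr, Gm43518 and Ccdc62 for Hcar2, with Siglece, Zfp819 and Ctu1 for Ceacam18, with Gm17455 for Vsir, with Tnni2 for Syt8, with Stat6, Nab2 and Nemp1 for Lrp1, and with Rnf149 for Cnot11.

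**Figure D2:**
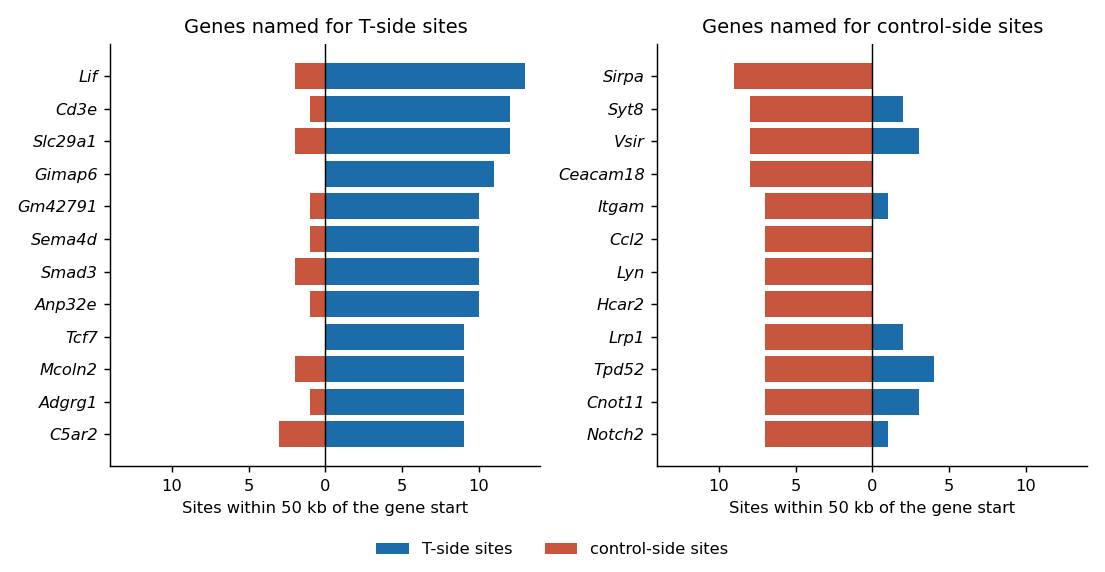
Number of T-side (blue, to the right) and control-side (red, to the left) sites within 50 kb of the gene start for the 12 genes named for each side. Gimap6 and Tcf7 have no control-side site, and Sirpa, Ceacam18, Ccl2, Lyn and Hcar2 have no T-side site.

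**Figure D3:**
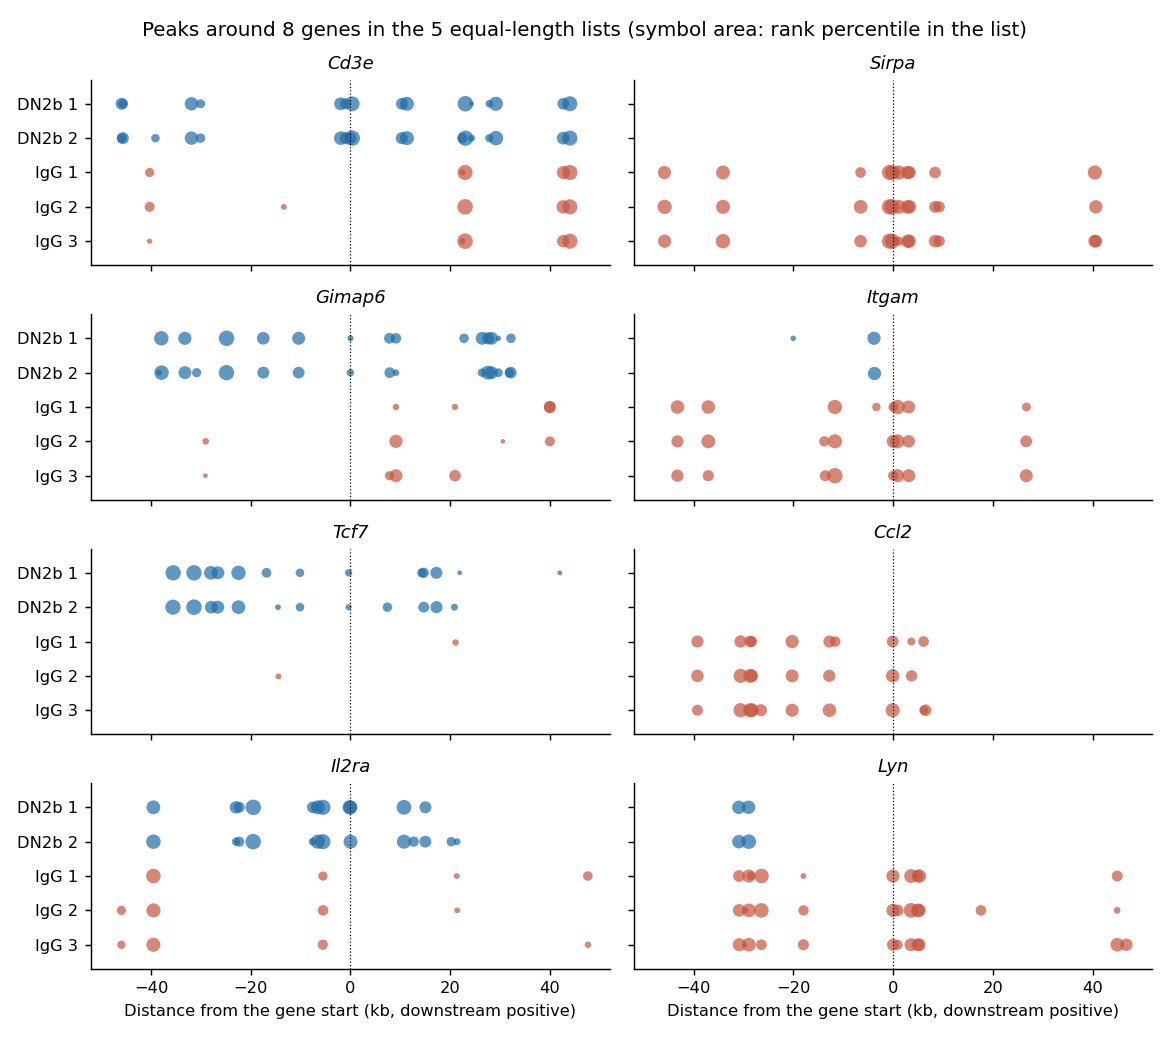
Peaks within 50 kb of the start of 8 genes chosen after their values were seen, in the equal-length lists of the 2 DN2b (blue) and 3 IgG (red) libraries; the horizontal axis is distance from the start in kb along the gene, and symbol area grows with the rank percentile of the peak. Around Sirpa and Ccl2 the DN2b rows are empty, and around Tcf7 the IgG rows hold 1, 1 and 0 peaks.

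T-side promoters, with a peak in both DN2b lists and no IgG list, numbered 557 (2.56% of genes), and control-side promoters 313 (1.44%). Ranked by the lowest percentile among their side's libraries, the first T-side promoter was that of Rcsd1 (94.8 and 95.2), then Spo11, the enzyme that starts meiotic recombination (93.9 and 92.3), and Ctla2a with the overlapping model Gm49391 (93.4 and 92.3). Selplg, the selectin ligand PSGL-1 of leukocytes, followed (92.0 and 99.3). Fndc11, Slc16a5 and Sla2 completed the 8, with lowest percentiles of 90.5, 89.8 and 88.8. Sla2 encodes an adaptor of T cell receptor signalling. On the control side the first was Arrdc4, an arrestin-domain protein (98.7, 99.6 and 99.5). Gm14548 stood at 92.9, 95.4 and 93.3. Psen2, a catalytic subunit of gamma-secretase, the enzyme that cleaves Notch, stood at 92.6, 94.0 and 97.0. Sirpa, Ndel1, Hal and Rnf11 were also among the 8.

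Among the highest-ranking single sites of the T side, after the one by Trbc2, was an intron of Bdh1 on chromosome 16 (31424577 to 31424746, percentiles 99.2 and 99.9), with a peak in both DN1 and both DN2a lists and no LSK list. An intron of Ccr9, the gene of a receptor for homing to thymus and gut, came next on chromosome 9 (123754497 to 123754646, 99.2 and 99.3). It had a peak in all 7 other lists. Sites between genes followed on chromosome 10, 41.8 kb from the start of Metap2, and on chromosome 13 at 19356217 to 19356406, beside the T cell receptor gamma locus. After the site near Ccr1, the control side had the Arrdc4 promoter on chromosome 7 (68749277 to 68749486), an intron of Adssl1 on chromosome 12 (112629417 to 112629586), a site inside the noncoding gene Gm16188 6.47 kb from Slc25a33, and one 64.3 kb from Tmem189.

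The study drew tracks at 6 genes. Il2ra had 8 T-side sites and none of the control side, with a promoter peak at percentiles 81.0 and 76.5 in DN2b. Rag1, a subunit of the recombinase that assembles receptor genes, had 2 to 0 and a T-side promoter (40.1 and 62.5). Bcl11b had 3 to 0 and a T-side promoter (95.2 and 87.8). Hes1, a direct Notch target, had 3 to 0. Its promoter peak was present in all 5 lists, at 89.8 and 94.6 in DN2b and 16.4, 17.0 and 28.9 in IgG. Nrarp, another target, had 1 T-side site, and its promoter lacked a peak only in IgG replicate 2.

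Gene lists gave the broader picture. All 8 genes of the T cell receptor complex and recombination had more T-side than control-side sites, against 29.6% of all genes, and 4 of 8 had a T-side promoter, against 2.56% of all genes. Promoters with a peak numbered 4 and 6 of 8 in DN2b and 0, 0 and 0 in IgG. The list shares loci, with Cd3e, Cd3d and Cd3g in one and Rag1 and Rag2 in another. Summed over all 8 genes, the counts came to 43 T-side and 2 control-side, with a shared site counted once for each gene. Over all protein-coding genes the same sums were 18556 and 12682. Of 14 genes of T cell receptor signalling, 12 had more T-side sites and 1, Fyn, more control-side sites. Plcg1, a phospholipase, had 8 to 0. The kinase Prkcq had 7 to 0, and the adaptor Lat had 7 to 1. Of the 14, 6 had a T-side promoter, and 8 and 8 had a promoter peak in DN2b against 2, 2 and 2 in IgG.

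The next 3 lists also stand against 29.6% of all genes with more T-side and 19.8% with more control-side sites. Of 12 T lineage transcription factors, 9 had more T-side sites and 3 (Ets1, Runx1 and Tcf3) more control-side sites, 75% and 25%. Runx3 had 7 to 0 with a promoter open in all 5 lists, and Ikzf1, the gene of IKAROS, had 7 to 1 with no promoter peak. Of 13 surface and cytokine receptor genes, 8 had more T-side and 3 more control-side sites. After Il2ra, the most T-side sites there were around Thy1, Cd27 and Ccr7, each with 6 to 0, and Cd5, with 6 to 1. The members with more control-side sites were Cd6, with 2 to 4, and Cd8a and Cd8b1, with 0 to 1 each. Cd8a and Cd8b1 are genes of a later stage, as is Cd4, which had 3 to 0. Of 15 NK and innate lymphoid genes, 10 had more T-side sites and 1, Nfil3, more control-side sites. Gzmb, a cytotoxic protease, had 6 T-side sites, all upstream, and the receptor gene Klrb1c had 6 to 1.

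Of 13 Notch pathway genes, 8 had more T-side and 4 more control-side sites, or 61.5% and 30.8%, both above the shares over all genes (29.6% and 19.8%). Lfng, which adds sugars to Notch, had 5 to 1, whereas the receptor genes Notch1 and Notch2 had 1 to 5 and 1 to 7. Hey1 was the one with a T-side promoter. When a peak in at least 1 library was enough, the balance turned to 4 more members on the control side than on the T side (-4).

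Macrophage, neutrophil and progenitor lists leaned the other way at equal list length. Of 21 macrophage and dendritic cell genes, 15 had more control-side sites and 3 more T-side sites, against 19.8% of all genes with more control-side sites. By number of control-side sites, 3 genes tied after Itgam. They were Csf2rb, a shared receptor chain of GM-CSF and IL-3 (5 to 1), the chemokine receptor Cx3cr1 (5 to 1) and Fcgr2b (5 to 2). A control-side promoter was found for 5 (23.8%, against 1.44% of all genes), namely Csf2rb, Itgam, Fcgr1, Lyz2 and Tlr4, and a T-side promoter for 1, Batf3. Of 16 neutrophil genes, 9 had more control-side sites and 5 more T-side sites, so their surroundings were mixed. Without DN2b replicate 1 the balance of T-side over control-side members went from -4 to 0, and it was -10 within 25 kb and -12 when a peak in at least 1 library was enough. Their promoters were less mixed, with 8 of 16 on the control side against 1.44% of all genes: Ctsg, Lcn2, Camp, Ngp, S100a8, S100a9, Mmp8 and Fcnb, mostly genes of granule or secreted proteins. The promoter peak of S100a9, for example, stood at 92.9, 97.8 and 56.0 in IgG. Gfi1, a repressor that acts in T cells as well as in neutrophils, had 6 T-side sites, none of the control side and a T-side promoter. These lists share loci too. Windows overlap for S100a8 and S100a9 among neutrophil genes and for Lyz1 and Lyz2 among macrophage genes, and a shared site counts for each gene.

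Of 18 stem and progenitor genes, 11 had more control-side sites and 3 more T-side sites, against 19.8% and 29.6% of all genes. Without DN2b replicate 1 the balance went from -8 to -4. Hoxa7, Hoxa9 and Hoxa10 account for 3 of the 11 with 4 control-side sites each, which are the same sites, and Lyl1 (6 to 1) and Mycn (4 to 0) went the other way. With all peaks as deposited the balance of the macrophage, neutrophil and progenitor lists turned to the T side, by 9, 4 and 13 members. The balance of the T cell receptor complex and signalling lists kept its direction in all alternatives.

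Of 14 myeloid transcription factor genes, 8 had more T-side sites and 4 more control-side sites, against 29.6% and 19.8% of all genes, and none had a promoter of one side. The direction of this balance was not stable. It went from 4 to -2 members when a peak in at least 1 library was enough, to 0 with half-length lists or within 100 kb, to 9 without DN2b replicate 1 and to 2 without IgG replicate 2. Of the 8 promoters with a peak in all 5 lists, some ranked higher in DN2b, some in IgG, and for others the ranks overlapped. No share over all promoters stands beside these ranks, so they are a description only. Spi1, the gene of PU.1, had a promoter peak at percentiles 38.0 and 43.6 in DN2b and 93.9, 94.0 and 93.0 in IgG. Cebpa stood at 47.5 and 46.4 in DN2b and 93.9, 96.5 and 94.5 in IgG. Cebpd had a peak in 1 DN2b list, at 21.5, and in all IgG lists, at 93.6, 91.8 and 89.7. Egr1, an early growth response factor, stood at 64.5 and 68.5 in DN2b and 79.9, 86.8 and 71.0 in IgG. Maf (92.0 and 90.5 against 66.6, 23.1 and 52.4) and Nfe2 (99.3 and 99.3 against 97.4, 98.1 and 98.6) ranked higher in DN2b. Rank in a list depends on all other peaks of that library. Rara, the gene of a retinoic acid receptor, had 6 T-side and 3 control-side sites, and Cebpb 1 and 4. The shares over all genes, 29.6% with more T-side and 19.8% with more control-side sites, stand beside the next 3 lists too. Mast cell genes were even at 3 and 3 of 15 (20% each), with 3 to 1 around Hdc, the histamine-forming enzyme, and 1 to 3 around the protease genes Mcpt4 and Mcpt8. The windows of Mcpt4 and Mcpt8 overlap, so shared sites count for both. Erythroid and megakaryocyte genes were even at 5 and 5 of 15 (33.3% each), with 4 to 0 around the globin gene Hba-a1 and 2 to 4 around Vwf. Of 14 B lineage genes, 6 had more T-side sites, with 4 to 0 around Pou2af1, and 3 had more control-side sites (42.9% and 21.4%). Leaving out 1 library in turn took the balance from -1 to 3 members for mast cell genes, from -1 to 4 for erythroid and megakaryocyte genes, and for B lineage genes from 3 to 1 without IgG replicate 1 and to 5 without DN2b replicate 2. With all peaks as deposited the balance went to 11, 13 and 13 members on the T side for the mast cell, erythroid and B lineage lists. When a peak in at least 1 library was enough it was -8, -2 and 2.

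**Figure D4:**
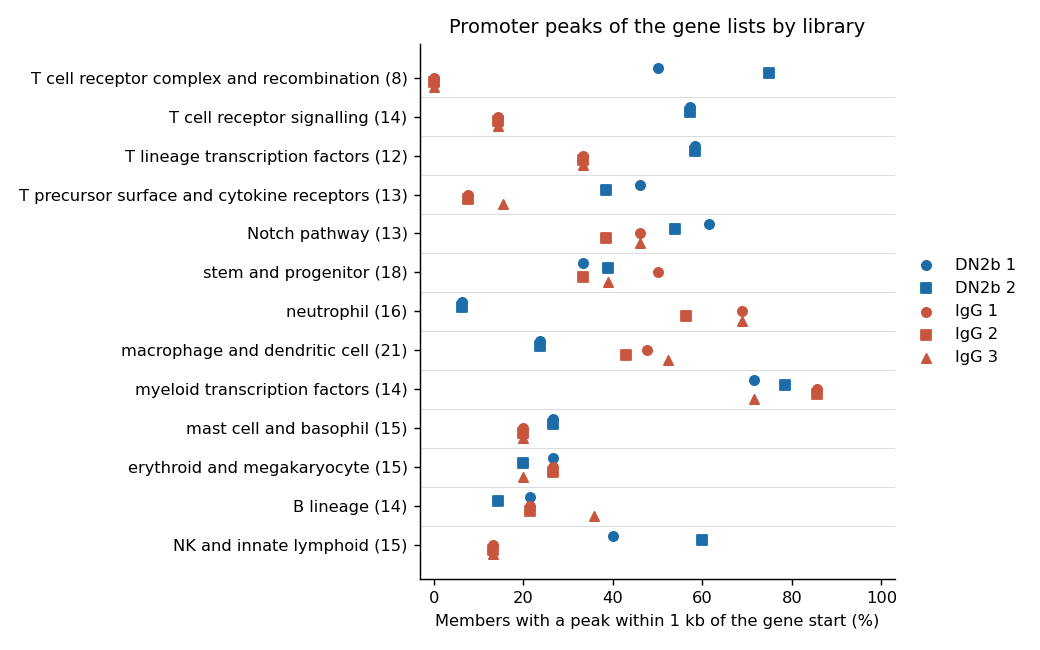
Percentage of the members of 13 gene lists (number of members in brackets) with a peak within 1 kb of the gene start in each of the 2 DN2b (blue) and 3 IgG (red) libraries. The T cell receptor complex list has 4 and 6 of 8 in DN2b and 0 in each IgG library, and the neutrophil list has 1 and 1 of 16 in DN2b and 11, 9 and 11 in IgG.

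Antigen receptor loci, most of whose gene segments are not in the protein-coding set, were counted apart, against 16.8% of all merged regions on the T side and 12.7% on the control side. The T cell receptor beta locus (chromosome 6, 40891229 to 41558452) had 24 T-side and 2 control-side sites among 41 regions. Its regions with a peak numbered 26 and 35 in DN2b and 4, 7 and 4 in IgG. The alpha and delta locus on chromosome 14 had 18 and 0 of 33 regions, and the gamma locus on chromosome 13 had 12 and 1 of 29. The immunoglobulin heavy chain locus on chromosome 12 also had 14 T-side sites and 1 control-side site of 45 regions. The kappa locus had 1 and 0 of 4, too few regions to set against these shares. In fixed windows of 1 Mb, the one with the most T-side sites began at 44 Mb of chromosome 9 and held Thy1, Cd3d and Cd3g (34 T-side and 10 control-side sites). The one with the most control-side sites began at 126 Mb of chromosome 8 and held Irf2bp2 (25 control-side and 9 T-side sites). The window at 129 Mb of chromosome 2, with Il1a, Il1b and Sirpa, had 20 control-side and 3 T-side sites.

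The CpG content of promoters, the subject of the study, was set beside the sides as the observed/expected CpG ratio in 2 kb around the start. The median was 0.481 for the 557 T-side promoters and 0.335 for the 313 control-side promoters. Promoters open in all 5 lists had 0.654 and those with no peak 0.233. Ratios under 0.4 were found for 41.1% of T-side and 58.5% of control-side promoters, against 5.81% of promoters open in all 5. The control-side median moved with list length, to 0.213 with all peaks as deposited and 0.436 with half-length lists. The T-side median was above it in both. No test was made, as promoters are not replicates. Among the 8 T-side promoters named, the ratios were low, from 0.123 for Gm49391 to 0.287 for Sla2. Those of the 8 control-side promoters ran from 0.078 for Gm14548 to 0.66 for Sirpa. Tcf7 (0.736) and Bcl11b (0.856) were T-side promoters rich in CpG. Il2ra, Cd3e and Rag1, for which the study reports particularly low CpG content, were T-side promoters too.

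Short motifs, 13 in all, were searched on both strands in the central 200 bp of each site. The letters of the E-box CACCTG were in 29.2% of T-side sites (28.3% to 30.0%), 5.91% of control-side sites (5.41% to 6.45%) and 14.9% of all regions. RUNX letters TGTGGT were in 45.5% and 24.5%, against 26.4% of all regions. The E-box CAGCTG was in 23.0% and 12.6% (all regions 15.2%), and the TCF1/LEF1 letters CTTTGA in 19.98% and 11.6% (12.9%). GATA letters AGATAA, at 13.5% and 7.11% (7.93%), STAT letters TTCNNNGAA, at 9.96% and 5.56% (6.38%), and RBPJ letters GTGGGAA, at 6.04% and 3.54% (4.52%), were also more frequent on the T side. Among the motifs more frequent on the T side, the widest gaps were those of the E-box CACCTG and RUNX, and their order was not fixed. RUNX was ahead at sites outside promoters (24.4 against 23.8 percentage points), in windows of 150 bp (20.3 against 19.4) and without IgG replicate 3 (21.2 against 20.8).

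Control-side sites held the C/EBP letters TTGCNNAA in 34.5% of cases (33.5% to 35.6%), against 5.85% on the T side (5.41% to 6.31%) and 14.4% of all regions. AP-1 letters TGANTCA were in 20.5% and 8.03% (all regions 11.6%). The PU.1 letters GAGGAAG were in 25.8% and 14.6% (17.7%). They contain the ETS letters AGGAAG, found in 51.2% and 44.7% (41.7%). The ETS difference depended on list length, at -12.3 points (T-side minus control-side) with all peaks as deposited and -2.46 with half-length lists. The E-box CACATG, a MITF type, was in 18.7% and 15.1% (13.6%). IRF letters GAAANNGAA did not separate the sides, at 8.70% and 8.64%. Windows of the sides differ in base composition, with a median GC content of 51% on the T side and 47.5% on the control side, and its part in these shares was not tested.

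The same motifs were counted in all peaks of each list. E-box CACCTG letters were in 18.9% and 19.7% of DN2b peaks and 9.41%, 9.82% and 8.91% of IgG peaks. C/EBP letters were in 6.41% and 6.30% of DN2b peaks and 19.2%, 17.1% and 17.5% of IgG peaks. In 12 of 13 motifs the groups did not overlap, IRF being the exception. In the two-sided exact permutation test 11 motifs had p = 0.1, the smallest possible (adjusted p = 0.118 over 13 motifs), ETS p = 0.2 (adjusted 0.217) and IRF p = 0.9.

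**Figure D5:**
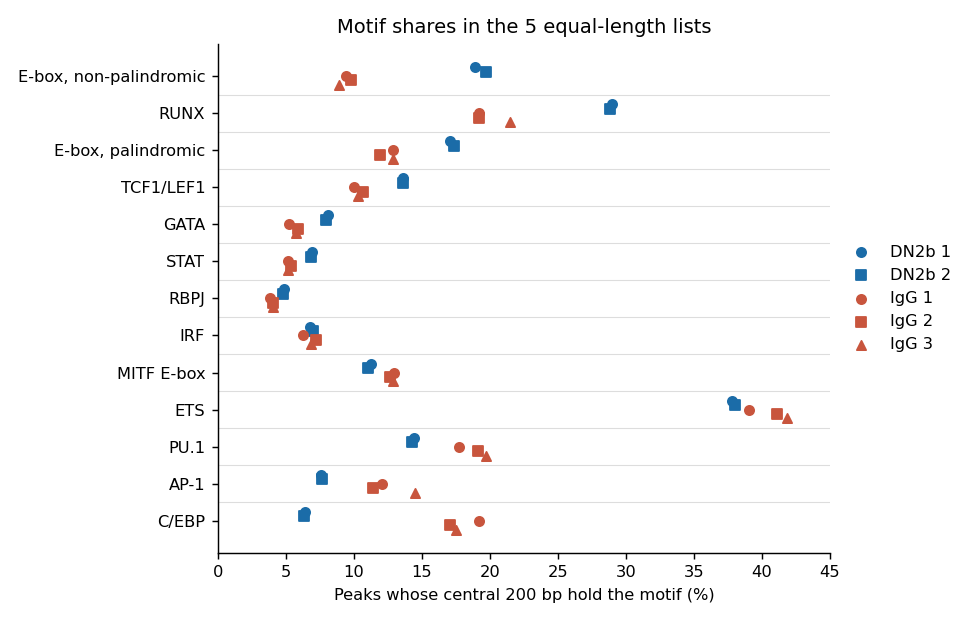
Percentage of peaks in each equal-length list whose central 200 bp hold each of 13 motifs, for the 2 DN2b (blue) and 3 IgG (red) libraries, ordered by the difference between group means. The non-palindromic E-box stands at 18.9% and 19.7% in DN2b and 8.91% to 9.82% in IgG, and C/EBP at 6.30% and 6.41% in DN2b and 17.1% to 19.2% in IgG.

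Motif shares also followed where sites had been seen before, a comparison chosen after the data were seen. On the T side the E-box CACCTG was in 22.8% of sites with a peak in all LSK lists (21.1% to 24.6%), 23.0% of those in no LSK and both DN1 lists, 31.7% of those in no LSK or DN1 list and both DN2a lists, and 45.7% of those in none of the 7 other lists (43.0% to 48.4%). RUNX letters had another order, with 36.9%, 61.1%, 53.3% and 41.3%. STAT letters were in 6.28%, 7.95%, 16.5% and 13.2%, higher in the later classes. On the control side C/EBP letters were in 22.6% of sites with a peak in all LSK lists (20.6% to 24.8%) and in 41.8% of those in none of the 7 lists (40.4% to 43.2%), while PU.1 letters went the other way, at 34.7% and 20.4%. Single genes varied widely about the share of their side. Among the 12 control-side genes named, C/EBP letters ranged from 1 of 8 sites around Ceacam18 and 1 of 7 around Ccl2 and around Lrp1 to 5 of 9 around Sirpa and 5 of 7 around Notch2. Among the 12 T-side genes, the E-box CACCTG ranged from 2 of 12 sites around Slc29a1 to 5 of 12 around Cd3e and 4 of 9 around Adgrg1.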

How the data were processed

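DNase-seq peak lists of 12 mouse libraries were used, 1 list per library. The authors trimmed adapters, aligned read pairs to mm10 with BWA 0.7.12 (SAMtools 1.2 is also named in the submitters' processing notes) and ran the peak caller hotspot2 (FDR 0.05) on each library without pooling. The deposited score, a whole number from 1 to 150 of unstated meaning, served only to rank peaks. Every peak is 150 bp wide. Read depth is unknown.

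Groups came from the labels. Each list was shortened to 32952 peaks, the length of the shortest list on chromosomes 1 to 19 and X, with ties in seeded random order (seed 11). Gene records were from GENCODE M21 (the study used an earlier release), and sequence from GRCm38. Coordinates are 1-based. Named were, per side, 12 genes by sites, 8 promoters and 5 sites by the lowest percentile, the 6 genes drawn by the study and up to 4 members of each of 13 lists by sites. A few items chosen by these rules are not reported here. One list member, Clec7a, is not in the protein-coding set and was left out. Members, lists and rules were chosen with earlier results of these data known. Counts of sites have no test. Single values per library were compared by exact permutation over libraries with Benjamini-Hochberg adjustment, in Python 3.11.15 with pandas 2.3.3, NumPy 2.4.6, SciPy 1.17.1 and pysam 0.24.0. Scripts were tested on simulated data. Alternatives varied list length, ties, merging, chromosomes, presence, windows and each library in turn. No regions were masked.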

Additional observations from a re-analysis of the deposited data

How the results depend on the processing

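With all peaks as deposited there were 29644 T-side and 5878 control-side sites, and 1330 T-side and 120 control-side promoters. The half-length lists gave 5004 and 3926 sites. When a peak in at least 1 library of a group sufficed, 16732 T-side and 25167 control-side sites and 902 control-side promoters were counted. Allowing 1 library of the other group gave 957 T-side promoters. Leaving out 1 library in turn gave 11107 to 13708 T-side and 8420 to 10142 control-side sites, 625 to 730 T-side and 347 to 411 control-side promoters, a Delta1 minus LSK difference of 26.1 to 36.3 points on the T side and -12.6 to -8.75 on the control side, and a promoter share difference of 3.76 to 4.51 points. That last difference was -6.95 with the lists as deposited. The T-side sites with a peak in Delta1-grown libraries kept a higher share than in LSK in all 19 alternatives, and the control-side sites a lower one in all 19.

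Among named genes, C5ar2 turned to -2 (T-side minus control-side sites) within 25 kb and Cnot11 to 2 as deposited. As deposited the balance of list members turned to 9 for macrophage and dendritic cell, 4 for neutrophil and 13 for stem and progenitor genes. With a peak in at least 1 library sufficient, it turned to -4 for Notch pathway and -2 for myeloid transcription factor genes. No motif difference past its intervals changed sign in the 10 alternatives run. No paired analysis was possible because the replicate numbers follow deposition order and the labels name no shared isolate. Leaving out regions wider than 500 bp, chosen after seeing the data, turned no difference around the named genes. The cause of these changes was not tested.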
